A study of Mus musculus with 3 samples.

Results

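The solute carrier (Slc) genes encode membrane transporters, and their H3K36me3 (histone H3 trimethylated at lysine 36) was compared between splenic and large intestinal (LI) regulatory T (Treg) cells. Members were the protein-coding genes of the GENCODE M21 annotation whose symbol is Slc followed by a digit and whose body holds the midpoint of at least 2 H3K36me3 peaks. Of 371 such symbols, 152 qualified, 32 had 1 peak and 187 had none. The 152 were 41.0% of the annotated Slc genes, and among all 21951 protein-coding genes 8701, or 39.6%, had at least 2 peaks. The Treg cells were sorted as CD3+CD4+YFP+ cells from C57BL/6 mice whose genotype the labels give as Foxp3-YFP and the study's methods as Foxp3Cre-YFP. This allele places Cre recombinase and YFP under the control of Foxp3, the lineage factor of Treg cells, and both groups carried it. Chromatin immunoprecipitation followed by sequencing (ChIP-seq) measured the mark, with 1 library per tissue, each from the pooled cells of male and female mice kept at steady state, and no agent or gene deletion was part of either group. A library of input chromatin from splenic Treg cells served the peak calling and was not analysed here. The labels give no age, and the study's methods give an age range for its in vivo work in general. Without replicates, every difference below is a difference between these libraries and carries no p-value.

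Solute carriers move sugars, amino acids, ions, metals, vitamins, nucleotides and metabolic intermediates across the plasma membrane and the membranes of organelles. Members are grouped by number into families that share sequence and, in most cases, a class of substrate. T cells that are activated raise the uptake of glucose and amino acids through a small set of these transporters, while many other carriers belong to epithelia, kidney or neurons. H3K36me3 is laid down by Setd2, a methyltransferase that travels with elongating RNA polymerase II, so that the mark covers the bodies of transcribed genes and thickens toward their 3′ ends. It marks a transcribed gene body and is not a measure of the transporter's protein or activity.

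Values are RPKM, read coverage per kilobase scaled to the depth of the library, averaged over each peak. A gene's signal is the sum of its peaks, and its log2 ratio of LI over spleen was taken after adding 0.5 RPKM and after scaling each library to its total over all peaks. Whether a gene or peak was higher in a tissue was read after that scaling. Each ratio is followed by an approximate 95% counting interval, which covers counting error only and not the difference between animals or immunoprecipitations. A larger share of cells with the mark and more of it per cell cannot be told apart. Gene positions are those of the annotation on mm10. The step size of the values corresponded to 29600000 mapped reads in spleen and 38100000 in LI. This takes 1 step as 1 read in a bin of 20 bp, a size that the study's methods do not give. All 7 markers of T and Treg cells held peaks, with Foxp3 at 133 RPKM in spleen and 156 RPKM in LI (log2 ratio 0.19, -0.015 to 0.40). They summed to 1847 RPKM in spleen and 1535 RPKM in LI, most of it in Ikzf2. That gene had 1205 and 851 RPKM (-0.55, -0.66 to -0.43). Intervals also lay below 0 for Cd3e (-0.41, -0.82 to -0.010) and Cd3g (-0.28, -0.53 to -0.040). The interval lay above 0 for Ctla4 (0.59, 0.29 to 0.89) and included 0 for Il2ra and Cd4. Of the markers of other cell types, 5 of 8 of the intestinal epithelium, 3 of 6 of B cells, 5 of 6 of myeloid cells and 3 of 5 of stroma and endothelium had no peak. The summed signal of the epithelial markers was 37.2 RPKM in spleen and 72.8 RPKM in LI, from Epcam, Vil1 and Cldn7, with Krt8, Krt18, Krt20, Cdh1 and Cdx2 at no peak. The sum of the B cell markers was 60.2 RPKM in spleen and 53.4 RPKM in LI, with Cd79a at 47.2 and 29.8 RPKM (log2 ratio -0.70, -1.35 to -0.047). The only myeloid marker with a peak was Csf1r, at 14.7 and 16.3 RPKM. Stroma and endothelium summed to 944 RPKM in spleen and 567 RPKM in LI, with no peak in Col1a2, Pdgfra and Cdh5. Most of that was Pecam1, an adhesion molecule of endothelium that leukocytes also carry, with 911 and 499.5 RPKM over 65 peaks (-0.91, -1.03 to -0.79), while Col1a1 had 33.6 and 67.1 RPKM (0.94, 0.31 to 1.57). The part of these markers in the results was not tested.

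The mark lay on stretches such as the following, 1 coding exon each from inside the strongest peak of the gene that held a whole coding exon of moderate size. They are shown for genes that the tissue comparison turned on, Slc16a6, Slc15a3 and Slc17a5 (more in LI), Slc7a5, Slc17a9 and Slc35b3 (more in spleen), and for Slc2a1, the main glucose transporter of T cells. Capitals mark the coding exon and lower case the 40 intronic bases on each side, written in the direction of the gene on GRCm38 (mm10).
Slc16a6: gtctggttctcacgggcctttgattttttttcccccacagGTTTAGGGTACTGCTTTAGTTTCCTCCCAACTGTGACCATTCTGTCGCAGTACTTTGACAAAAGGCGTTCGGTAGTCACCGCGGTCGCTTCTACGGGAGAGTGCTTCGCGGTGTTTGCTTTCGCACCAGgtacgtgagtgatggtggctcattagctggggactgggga
Slc15a3: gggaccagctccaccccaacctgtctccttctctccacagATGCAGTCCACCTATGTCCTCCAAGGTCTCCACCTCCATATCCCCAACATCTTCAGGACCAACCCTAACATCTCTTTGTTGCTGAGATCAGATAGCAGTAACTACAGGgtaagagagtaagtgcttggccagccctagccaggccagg
Slc17a5: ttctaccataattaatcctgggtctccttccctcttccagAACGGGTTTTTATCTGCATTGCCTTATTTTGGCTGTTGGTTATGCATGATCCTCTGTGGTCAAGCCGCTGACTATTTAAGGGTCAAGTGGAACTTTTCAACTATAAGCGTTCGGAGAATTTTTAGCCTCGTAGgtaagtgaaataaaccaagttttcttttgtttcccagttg
Slc2a1: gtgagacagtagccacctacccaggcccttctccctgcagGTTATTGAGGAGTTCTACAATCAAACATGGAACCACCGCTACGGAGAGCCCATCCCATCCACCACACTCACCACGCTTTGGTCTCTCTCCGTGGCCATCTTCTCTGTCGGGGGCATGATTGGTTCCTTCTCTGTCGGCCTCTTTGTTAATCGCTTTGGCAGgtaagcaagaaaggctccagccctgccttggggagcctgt
Slc7a5: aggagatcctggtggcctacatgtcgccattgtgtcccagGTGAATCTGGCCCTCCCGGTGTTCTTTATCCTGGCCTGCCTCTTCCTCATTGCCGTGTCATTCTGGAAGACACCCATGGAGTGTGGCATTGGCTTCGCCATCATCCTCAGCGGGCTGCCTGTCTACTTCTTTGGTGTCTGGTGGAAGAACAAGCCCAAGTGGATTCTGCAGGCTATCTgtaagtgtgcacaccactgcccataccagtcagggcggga
Slc17a9: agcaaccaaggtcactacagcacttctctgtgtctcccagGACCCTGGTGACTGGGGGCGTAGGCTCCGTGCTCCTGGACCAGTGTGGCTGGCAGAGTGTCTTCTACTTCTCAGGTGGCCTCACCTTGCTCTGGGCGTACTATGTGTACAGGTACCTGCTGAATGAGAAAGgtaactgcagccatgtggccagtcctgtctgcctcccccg
Slc35b3: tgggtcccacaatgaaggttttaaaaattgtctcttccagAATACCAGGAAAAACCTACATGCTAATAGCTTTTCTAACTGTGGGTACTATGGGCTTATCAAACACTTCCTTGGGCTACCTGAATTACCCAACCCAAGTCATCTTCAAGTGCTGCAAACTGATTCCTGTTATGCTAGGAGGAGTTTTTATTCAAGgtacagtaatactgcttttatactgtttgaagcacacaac
The stretch of Slc16a6 was chr11:109458437-109458645, minus strand, in a peak of 13.1 RPKM in spleen and 23.2 RPKM in LI. That of Slc15a3 was chr19:10854214-10854401, plus strand, in a peak of 6.84 RPKM in spleen and 19.2 RPKM in LI. For Slc17a5 it was chr9:78557417-78557629, minus strand, with 5.22 RPKM in spleen and 15.0 RPKM in LI. All 3 peaks were higher in LI. The stretch of Slc2a1 was chr4:119132083-119132323, plus strand, in a peak of 30.7 RPKM in spleen and 37.2 RPKM in LI. The Slc7a5 exon lay at chr8:121883551-121883808, minus strand, in a peak of 28.7 RPKM in spleen and 22.4 RPKM in LI. That of Slc17a9 was chr2:180735803-180736013, plus strand, with 18.9 RPKM in spleen and 13.9 RPKM in LI. The Slc35b3 exon lay at chr13:38944460-38944694, minus strand, with 14.8 RPKM in spleen and 9.77 RPKM in LI. The last 3 peaks were higher in spleen. In base composition the windows ran from 39.6% G and C with 0 CpG dinucleotides in Slc35b3 to 58.3% with 4 CpG in Slc17a9, and the window of Slc16a6 held 12 CpG.

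H3K36me3 spanned a wide range over the transporter genes. The level of a gene was its signal times peak length divided by gene length, which allows genes of different length to be compared. Peaks counted at full length, also where they ran past an end of the gene. The median level was 4.33 RPKM in spleen and 5.19 RPKM in LI, beside 4.71 and 4.98 RPKM over all 8701 genes. At full length, peaks came to a median of 35.3% of the gene's length. The median member held 6.5 peaks, while 17 members had exactly 2 and Slc4a7, a sodium bicarbonate cotransporter, had 51. At the margin of the rule, Slc25a13, a mitochondrial aspartate/glutamate carrier, entered with 2 peaks that summed to 10.4 RPKM in spleen and 12.6 RPKM in LI, and the zinc exporter Slc30a1 stayed out with 1 peak of 18.0 and 15.4 RPKM. The highest level per length belonged to Slc9a3r1, with 24.97 RPKM in spleen and 28.6 RPKM in LI. It encodes a scaffold protein that binds transporters and is no transporter itself. Next came Slc37a4, the glucose-6-phosphate translocase of the endoplasmic reticulum, with 25.4 RPKM in spleen and 26.1 RPKM in LI. Slc39a7, which releases zinc from the endoplasmic reticulum, had 23.9 RPKM in spleen and 26.0 RPKM in LI. The neutral amino acid transporter Slc38a2 followed with 25.8 RPKM in spleen and 24.0 RPKM in LI. The order rests on the mean of both libraries and on full peak lengths. These came to 115% of the gene's length in Slc37a4, 105% in Slc39a7 and 91.6% in Slc38a2. Over the bases in peaks alone, Slc38a2 had 28.2 RPKM in spleen and 26.2 RPKM in LI. By that measure Slc37a4 had 22.1 and 22.7 RPKM, and Slc39a7 had 22.8 and 24.7 RPKM. The lowest level was that of Slc25a13, with 0.0166 RPKM in spleen and 0.0173 RPKM in LI. Levels in both tissues were close across the members, with a Pearson correlation of 0.97 on the log2 scale over 152 genes, which share the libraries and their depth.

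**Figure D1:**
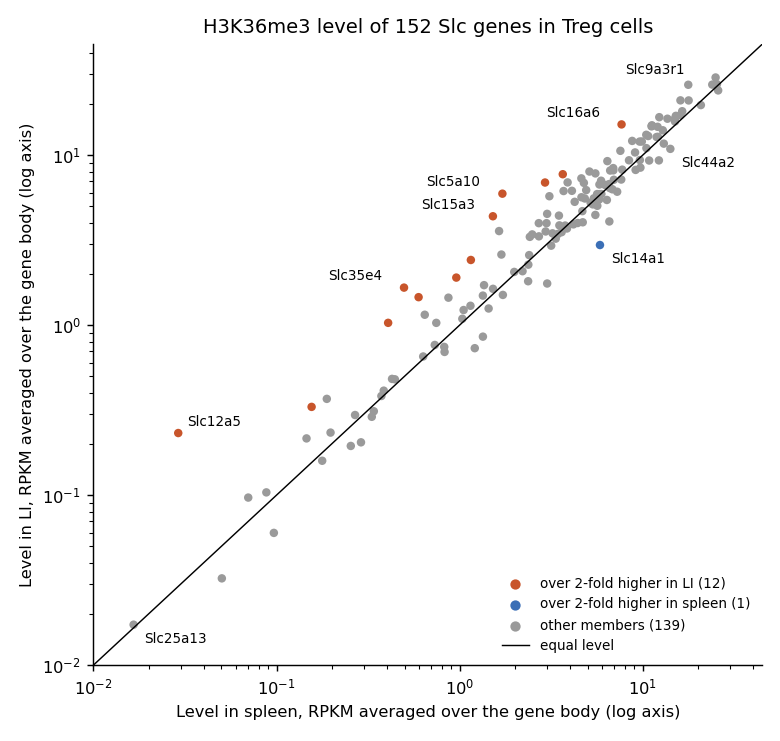
H3K36me3 level per length of the 152 Slc genes in Treg cells of the spleen (x axis) and LI (y axis), both in RPKM on log axes. The level is signal times full peak length, divided by gene length. Each point is a gene and the line marks equal levels. Most genes lie along the line, and Slc12a5 stands farthest above it, at 0.0290 RPKM in spleen and 0.232 RPKM in LI.

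Within the genes, signal rose toward the 3′ end. With each gene body divided into 10 equal bins, the members averaged 0.804 RPKM in spleen and 0.836 RPKM in LI in bin 1, at the start, and 8.79 and 10.1 RPKM in bin 8. Bin 10 was lower, with 7.44 and 8.50 RPKM. A total of 132 of 152 members had more than 50% of their signal in the 3′ part of the gene past its midpoint, and the median share there was 80.7%. These shares were not computed for all 8701 genes, whose bins also rose. These bin values were not scaled to the totals, and LI exceeded spleen in each bin for the members and for all 8701 genes, which had 0.922 and 1.03 RPKM in bin 1 and 9.09 and 9.79 RPKM in bin 8. Of the 1713 pairs of peak and gene, 69.3% had the midpoint in an intron, 13.5% within 1 kb of a transcript start, 7.59% in an untranslated region, 5.60% in a coding exon and 4.03% in another exon.

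**Figure D2:**
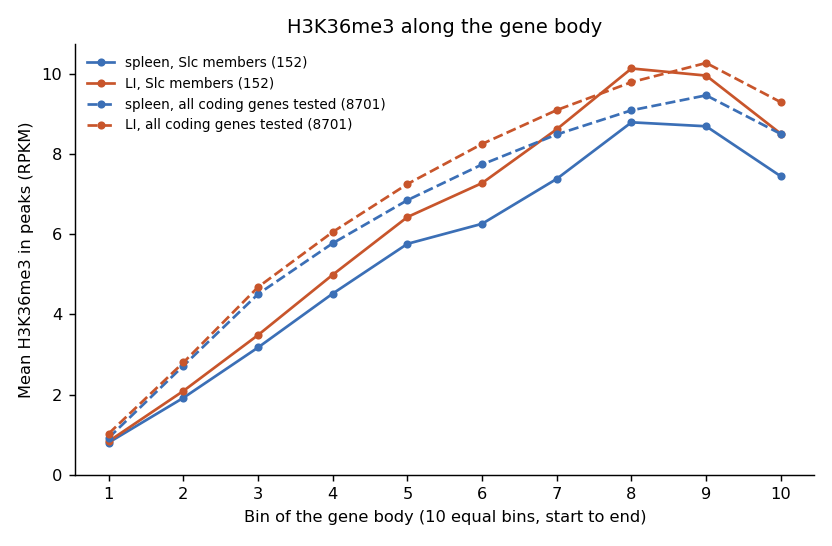
Mean H3K36me3 in peaks (RPKM, bases outside peaks counted as 0) over 10 equal bins of the gene body, from the start of the gene (1) to its end (10), for the 152 Slc members (solid) and all 8701 coding genes tested (dashed) in spleen (blue) and LI (red). All 4 lines rise from about 1 RPKM in bin 1, and those of the Slc members peak in bin 8.

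The Slc genes carried slightly more signal in LI. Of 152 members, 95 were higher in LI, or 62.5%, beside 49.9% of all genes, and 57 were higher in spleen. The median log2 ratio of the members was 0.081 (binomial 95% interval over genes 0.024 to 0.17), with the middle 50% between -0.17 and 0.35. Over all 8701 genes the median was -0.0011, and the middle 50% ran from -0.20 to 0.22. Past 2-fold, 12 members were higher in LI, or 7.89%, beside 3.05% of all genes tested, and 1 was higher in spleen, or 0.658%, beside 1.77%. Peaks were called in each tissue and merged, so a gene with few peaks can have entered through the tissue where it was high. The counting interval lay wholly above 0 in 47 members, or 30.9%, beside 17.7% of all genes, and wholly below 0 in 22, or 14.5%, beside 15.6%. In 30 members, or 19.7%, every peak was higher in LI, beside 12.8% of all genes, and in 10, or 6.58%, every peak was higher in spleen, beside 6.86%. The shift toward LI moved with base composition: the median of the members fell to 0.0043 when LI values were corrected for the G and C content of the peaks, as described further below. Over all genes the corrected median was -0.013.

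Among the members with at least 50 RPKM over both libraries, the 10 whose interval lay farthest above 0 were led by Slc5a10. This sodium-dependent sugar transporter known from kidney (chr11:61672781-61720826) had 81.0 RPKM in spleen and 243 RPKM in LI (log2 ratio 1.53, 1.22 to 1.85). All 15 of its peaks were higher in LI, but 90.5% of its signal lay in peaks that also fell within Fam83g or Grap, so that this value cannot be assigned to Slc5a10. Slc15a3, a peptide and histidine transporter of lysosomes (chr19:10839727-10859362), had 53.6 RPKM in spleen and 139 RPKM in LI (log2 ratio 1.32, 0.89 to 1.75). Its peaks were higher in LI in 9 of 9 cases, and 26.6% of the signal was shared with Tmem132a. Slc16a6, of the monocarboxylate transporter family (chr11:109450855-109473598), had 82.9 RPKM in spleen and 185 RPKM in LI (log2 ratio 1.11, 0.86 to 1.36). Of its signal 23.6% was shared with Amz2 or Arsg. LI was higher in 12 of 12 peaks, from the first, near the gene start, at 7.997 RPKM in spleen and 15.54 RPKM in LI, to the longest, of 5466 bp, at 13.1 and 23.2 RPKM. Slc17a5, known as sialin, which exports sialic acid from lysosomes (chr9:78536488-78588041), had 69.9 RPKM in spleen and 162 RPKM in LI (log2 ratio 1.16, 0.80 to 1.52), with 13 of 14 peaks higher in LI.

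Slc52a3, a riboflavin transporter (chr2:151996511-152009258), had 25.5 RPKM in spleen and 64.7 RPKM in LI (log2 ratio 1.28, 0.85 to 1.71), and its peaks were all higher in LI. Slc4a8, a sodium-driven chloride bicarbonate exchanger, had 229 RPKM in spleen and 446 RPKM in LI (log2 ratio 0.91, 0.71 to 1.12). Its difference was below 2-fold but ran through 31 of 32 peaks. Slc46a3, a lysosomal transporter, had 52.5 RPKM in spleen and 100.5 RPKM in LI (log2 ratio 0.88, 0.49 to 1.27), and Slc26a11, of the sulfate and chloride transporter family, had 155 RPKM in spleen and 266 RPKM in LI (log2 ratio 0.73, 0.46 to 1.00). Slc4a11, a member of the bicarbonate transporter family, had 15.5 RPKM in spleen and 41.2 RPKM in LI (log2 ratio 1.33, 0.60 to 2.06) over 3 peaks. Slc39a4, the zinc importer of the gut epithelium, had 17.2 RPKM in spleen and 37.3 RPKM in LI (log2 ratio 1.05, 0.48 to 1.63), also over 3 peaks. The last pair had little signal, and their intervals were correspondingly wide.

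The remaining members past 2-fold in LI held 2 or 3 peaks each. They may have entered the set only through peaks called in LI, since the values do not tell in which tissue a peak was called. Slc12a5, the potassium chloride cotransporter of neurons, had the largest ratio, with 4.15 RPKM in spleen and 33.2 RPKM in LI (log2 ratio 2.81, 1.28 to 4.34). Both tissues were low there, and 2 of its 3 peaks lay within 1 kb of a transcript start with 71.4% and 71.8% G and C. Slc35e4, an orphan of the nucleotide sugar transporter family, had 8.99 RPKM in spleen and 32.4 RPKM in LI (log2 ratio 1.75, 0.78 to 2.72). Slc39a13, a zinc transporter, had 9.56 RPKM in spleen and 25.9 RPKM in LI (log2 ratio 1.35, 0.33 to 2.36), with 45.1% of its signal shared with Psmc3. The creatine transporter Slc6a8 had 14.4 RPKM in spleen and 33.1 RPKM in LI (log2 ratio 1.13, 0.42 to 1.83). Slc25a23, a mitochondrial carrier of ATP-magnesium and phosphate, had 11.2 RPKM in spleen and 23.8 RPKM in LI (log2 ratio 1.01, -0.22 to 2.23), and it alone among the 12 had an interval that reached below 0. Slc2a6, a glucose transporter family member, lay just inside 2-fold with 30.0 RPKM in spleen and 62.5 RPKM in LI (log2 ratio 1.00, 0.38 to 1.62). Of the 12, 8 held fewer than 5 peaks, and Slc5a10 and Slc12a5 were the 2 whose interval lay wholly past 2-fold.

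Genes with more signal in spleen included the urea transporter Slc14a1, with 371 RPKM in spleen and 184 RPKM in LI (log2 ratio -1.06, -1.27 to -0.84). Its 27 peaks were all higher in spleen; the longest had 14.0 RPKM in spleen and 7.60 RPKM in LI. Slc17a9, the vesicular nucleotide transporter that loads ATP for release (chr2:180725263-180742280), had 91.9 RPKM in spleen and 50.4 RPKM in LI (log2 ratio -0.90, -1.23 to -0.58), and none of its 6 peaks was higher in LI. Slc44a2, a choline transporter-like protein (chr9:21320698-21355028), had 203 RPKM in spleen and 131 RPKM in LI (log2 ratio -0.67, -0.91 to -0.44), and 2 of 14 peaks were higher in LI. Slc7a5, the large neutral amino acid transporter that brings leucine into activated T cells (chr8:121881150-121907694), had 218 RPKM in spleen and 154 RPKM in LI (log2 ratio -0.54, -0.79 to -0.30). Spleen was higher in most of its peaks, and only 2 of 14 were higher in LI. All of its signal also fell within Gm20388, an annotated coding gene that spans it.

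Further genes higher in spleen included carriers of mitochondria and of the Golgi. Slc25a33, a pyrimidine nucleotide carrier of mitochondria, had 72.9 RPKM in spleen and 46.5 RPKM in LI (log2 ratio -0.69, -1.14 to -0.24). Slc25a3, the mitochondrial phosphate carrier, had 59.2 RPKM in spleen and 39.96 RPKM in LI (log2 ratio -0.61, -0.99 to -0.22). Slc25a40, which carries glutathione into mitochondria, had 112 RPKM in spleen and 74.0 RPKM in LI (log2 ratio -0.64, -1.08 to -0.20). All 3 were higher in spleen, and 0 of the 5 peaks of Slc25a33 and 0 of the 3 of Slc25a3 were higher in LI. When peaks were weighted by their length the ratio of Slc25a3 shrank to -0.16. Slc35b3, which brings the sulfate donor PAPS into the Golgi, had 228 RPKM in spleen and 172 RPKM in LI (log2 ratio -0.45, -0.65 to -0.25). Slc35d1, a Golgi and endoplasmic reticulum carrier of nucleotide sugars, had 452 RPKM in spleen and 357 RPKM in LI (log2 ratio -0.39, -0.56 to -0.21), and 11 of 44 peaks were higher in LI. Slc37a1, a glucose-6-phosphate antiporter, had 462 RPKM in spleen and 377 RPKM in LI (log2 ratio -0.34, -0.50 to -0.18). Slc35g1 was as far down as Slc17a9, at 31.9 RPKM in spleen and 17.2 RPKM in LI (log2 ratio -0.92, -1.49 to -0.34), over 3 peaks, and was named after its value was seen.

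**Figure D3:**
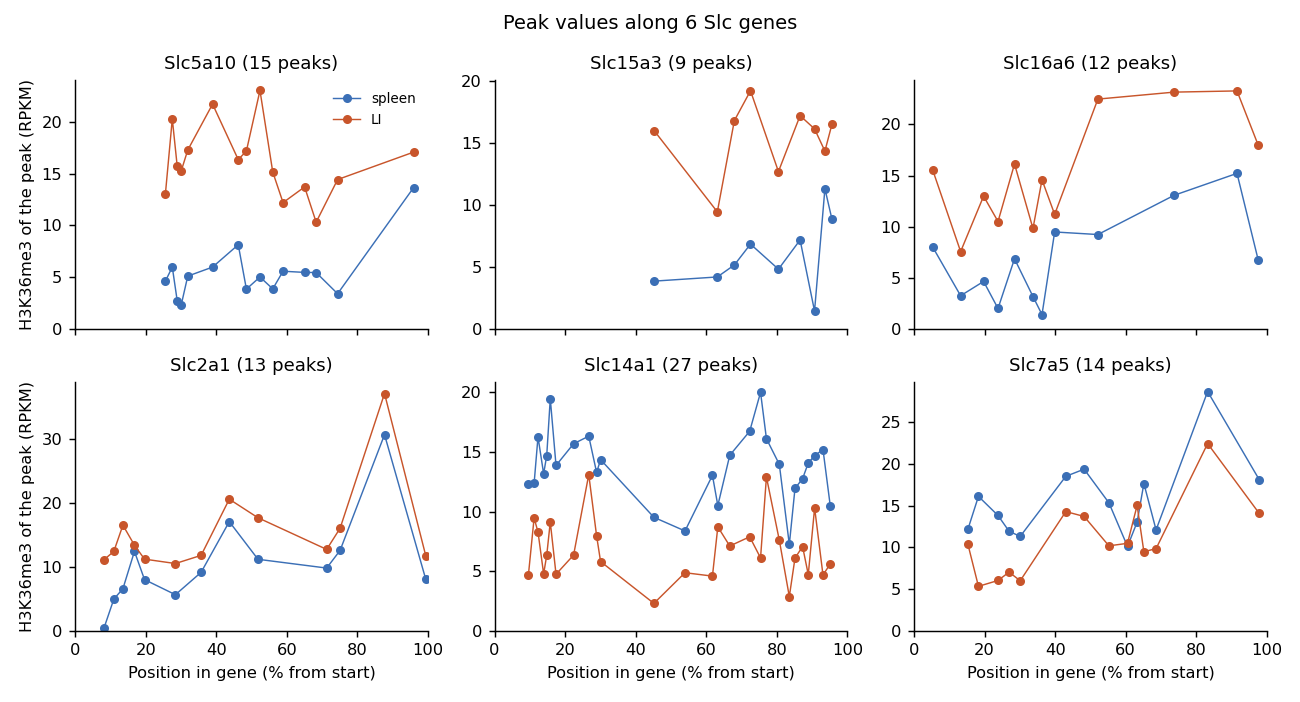
H3K36me3 of each peak (RPKM) against its position in the gene (percent of the gene body from its start) for 6 Slc genes, in spleen (blue) and LI (red). Each point is a peak and lines join the peaks of a library. LI is above spleen at every peak of Slc5a10, Slc15a3, Slc16a6 and Slc2a1, spleen is above LI at all 27 peaks of Slc14a1, and at 12 of 14 peaks of Slc7a5.

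For several of these genes the strongest peak alone gave a smaller ratio than the sum of all peaks. It was 0.27 for Slc5a10, 0.63 for Slc17a5, 0.55 for Slc16a6 and 0.14 for Slc26a11. On the spleen side it was -0.35 for Slc14a1, -0.48 for Slc17a9 and -0.33 for Slc44a2. Slc15a3, at 1.38, and Slc7a5, at -0.39, stayed within their counting intervals. In Slc46a3 and Slc4a8, higher in LI by the sum, and in Slc35b3, higher in spleen, the strongest peak had the other sign. Their values are given in the last section.

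By substrate, sugar transporters had the highest median ratio among the groups with more than 3 members. Of 34 annotated genes of the sugar and sugar phosphate families, 15 were members, and 12 of these were higher in LI. The median log2 ratio of the 15 was 0.29 (binomial 95% interval over genes 0.13 to 0.66). Some of the 12 shared peaks with other coding genes. This held for 100% of the signal of Slc5a3 (Mrps6 or Gm49711), 90.5% of that of Slc5a10 (Fam83g or Grap) and 42.6% of that of Slc5a2 (BC017158). The counting interval lay above 0 in 9 of the 15 members, or 60%, beside 17.7% of all genes. It lay below 0 in 1, Slc37a1, or 6.67%, beside 15.6%. After correction for G and C content the median stayed at 0.27. The corrected intervals of Slc45a4 (-0.19 to 0.27), Slc5a2 (-0.28 to 0.98) and Slc2a8 (-0.11 to 0.75) included 0. The rest of the 9 stayed above 0, and the interval of Slc2a9 came to lie below 0 (-0.82 to -0.070). The facilitative glucose transporters of family Slc2 had a median of 0.46 over 6 members, 5 of them higher in LI, and 0.31 after the correction. Slc2a1, the insulin-independent glucose transporter (chr4:119108711-119137983), had 137 RPKM in spleen and 203 RPKM in LI (log2 ratio 0.52, 0.29 to 0.76), and all 13 peaks were higher in LI. Its ratio was smaller when peaks were weighted by their length (0.25), from the strongest peak alone (0.23) and from peaks of at least 1 kb (0.24), and it was 0.83 with peaks assigned to the nearest transcript start. Slc2a3, a high-affinity glucose transporter, had 109 RPKM in spleen and 137 RPKM in LI (log2 ratio 0.29, 0.10 to 0.47), with 6 of 6 peaks higher in LI. Slc2a8, an intracellular hexose transporter, had 48.5 RPKM in spleen and 81.0 RPKM in LI (log2 ratio 0.69, 0.27 to 1.10). Slc2a9, a urate transporter, was the exception, with 130.2 RPKM in spleen and 114 RPKM in LI (log2 ratio -0.24, -0.60 to 0.13). Grouping followed the family number, so this group also holds Slc5a5, the iodide symporter, and Slc5a6, the multivitamin transporter.

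Of the amino acid and peptide families, 20 of 69 genes were members, and 14 of these were higher in LI, with a median of 0.22 (-0.082 to 0.30). Their counting interval was above 0 in 8, or 40%, beside 17.7% of all genes, and below 0 in 3, or 15%, beside 15.6%. The median was 0.088 after the G and C correction. The families within it pointed in different directions. Family Slc7, the cationic and large neutral amino acid transporters, had 4 members with a median of -0.31, counting Slc7a6os, which is not a transporter. Slc7a1, the arginine and lysine transporter of activated T cells, had 428 RPKM in spleen and 357 RPKM in LI (log2 ratio -0.31, -0.48 to -0.14). Slc7a6, which exchanges cationic for neutral amino acids, had 115 RPKM in spleen and 94.8 RPKM in LI (log2 ratio -0.32, -0.68 to 0.051). All 3 transporter members of Slc7 were thus lower in LI, and the interval of Slc7a6 included 0. By contrast Slc36a1, the proton-coupled amino acid transporter of lysosomes, had 169.5 RPKM in spleen and 269 RPKM in LI (log2 ratio 0.62, 0.39 to 0.84), with all 16 peaks higher in LI. Slc43a2, a large neutral amino acid transporter, had 287 RPKM in spleen and 376 RPKM in LI (log2 ratio 0.34, 0.17 to 0.51), and the taurine transporter Slc6a6 had 360.5 RPKM in spleen and 457 RPKM in LI (log2 ratio 0.30, 0.15 to 0.44). Among carriers of glutamine, Slc1a5 had 102 RPKM in spleen and 107 RPKM in LI (log2 ratio 0.03, -0.13 to 0.19) and Slc38a1 had 476 RPKM in spleen and 464 RPKM in LI (log2 ratio -0.082, -0.23 to 0.066). Slc38a2 had 57.7 RPKM in spleen and 53.6 RPKM in LI (log2 ratio -0.15, -0.29 to -0.018) and Slc38a7 had 80.5 RPKM in spleen and 98.8 RPKM in LI (log2 ratio 0.25, -0.05 to 0.55). Of these 4 only Slc38a2 had an interval that excluded 0, on the side of spleen. After the G and C correction the intervals of all 4 included 0, that of Slc38a2 at -0.24 to 0.026. The corrected interval of Slc6a6 also included 0 (-0.013 to 0.28), while those of Slc7a1, Slc36a1 and Slc43a2 did not.

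Only 3 of the 19 genes of the monocarboxylate and dicarboxylate families were members, all of family Slc16 and all higher in LI. Besides Slc16a6, the lactate exporter Slc16a3 had 54.4 RPKM in spleen and 73.6 RPKM in LI (log2 ratio 0.39, 0.099 to 0.68), and the lactate and pyruvate transporter Slc16a1 had 54.7 RPKM in spleen and 57.9 RPKM in LI (log2 ratio 0.035, -0.36 to 0.43). The interval of Slc16a1 included 0, its ratio after the G and C correction was -0.0039, and the ratio of Slc16a3 was 0.056 after the G and C correction, with an interval of -0.25 to 0.36.

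Carriers of inorganic ions counted 22 members of 56 genes, with 16 higher in LI and a median of 0.12 (-0.088 to 0.52). Intervals lay above 0 in 8, or 36.4%, beside 17.7% of all genes, and below 0 in 3, or 13.6%, beside 15.6%. After the G and C correction the median was 0.028, and 12 of 22 were higher in LI. The 5 members of the sulfate and anion family Slc26 were all higher in LI, with a median of 0.31, and 4 of them were higher after the correction, with a median of 0.054. The uncorrected intervals of 3 of the 5 included 0, and those of Slc26a1 and Slc26a11 lay above it. However, 100% of the signal of Slc26a1 was shared with Idua, and its corrected interval included 0 (-0.22 to 0.69). The potassium chloride cotransporters split. Slc12a4 had 92.4 RPKM in spleen and 141 RPKM in LI (log2 ratio 0.56, 0.27 to 0.85), whereas Slc12a7 had 205 RPKM in spleen and 168 RPKM in LI (log2 ratio -0.33, -0.56 to -0.099). Slc8b1, the mitochondrial sodium-calcium exchanger, had 141 RPKM in spleen and 208 RPKM in LI (log2 ratio 0.52, 0.26 to 0.77). After the G and C correction the interval of Slc8b1 remained above 0, at 0.037 to 0.55.

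Of the metal ion and heme carriers, 20 of 33 genes were members, a larger share than for amino acid carriers (60.6% and 29.0%). The median was 0.077 (-0.12 to 0.51), and 0.061 after the G and C correction. Intervals lay above 0 in 8, or 40%, beside 17.7% of all genes, and 0 lay below, beside 15.6%. Family Slc39, which brings zinc into the cytosol, had a median of 0.21 over 10 members, and family Slc30, which takes it out of the cytosol, a median of -0.12 over 4, none of whose intervals excluded 0. After the correction these medians were 0.061 and -0.0016. Slc39a6, a zinc importer of T cells, had 133 RPKM in spleen and 192 RPKM in LI (log2 ratio 0.49, 0.22 to 0.76). Slc39a14, which imports zinc and iron, had 90.3 RPKM in spleen and 124 RPKM in LI (log2 ratio 0.41, 0.13 to 0.68). The proton-coupled iron importer Slc11a2 had 92.5 RPKM in spleen and 136 RPKM in LI (log2 ratio 0.51, 0.24 to 0.77), with all 9 peaks higher in LI, and Slc41a3, of a magnesium transporter family, had 98.6 RPKM in spleen and 155 RPKM in LI (log2 ratio 0.60, 0.29 to 0.92). The T cell zinc transporter Slc39a10 had 79.8 RPKM in spleen and 81.5 RPKM in LI (log2 ratio -0.014, -0.45 to 0.42). Slc39a11 was at the other end, with 57.5 RPKM in spleen and 40.5 RPKM in LI (log2 ratio -0.55, -1.14 to 0.044). The difference between the family medians was not tested.

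Mitochondrial carriers of family Slc25 were the largest group, with 29 members of 47 genes, and were balanced between the tissues. Of these, 14 were higher in LI and 15 in spleen, and the median was -0.042 (-0.23 to 0.19) and -0.10 after the G and C correction. Intervals lay above 0 in 4, or 13.8%, beside 17.7% of all genes, and below 0 in 5, or 17.2%, beside 15.6%. Beside the genes already named, Slc25a24, a calcium-regulated ATP-magnesium carrier, had 94.9 RPKM in spleen and 165 RPKM in LI (log2 ratio 0.75, 0.38 to 1.11), with all 15 peaks higher in LI. The dicarboxylate carrier Slc25a10 had 48.4 RPKM in spleen and 73.6 RPKM in LI (log2 ratio 0.55, 0.17 to 0.94). Slc25a51, the NAD carrier, had 92.9 RPKM in spleen and 118 RPKM in LI (log2 ratio 0.30, 0.019 to 0.58). On the spleen side, the adenine nucleotide translocator Slc25a4 had 44.6 RPKM in spleen and 32.6 RPKM in LI (log2 ratio -0.49, -0.98 to -0.0024), and Slc25a42, the coenzyme A carrier, had 97.1 RPKM in spleen and 75.0 RPKM in LI (log2 ratio -0.42, -0.81 to -0.023). The citrate carrier Slc25a1 had 42.7 RPKM in spleen and 47.1 RPKM in LI (log2 ratio 0.094, -0.53 to 0.72), a ratio whose interval included 0. After the G and C correction the intervals of Slc25a10 (-0.19 to 0.62) and Slc25a51 (-0.041 to 0.53) also included 0. Those of Slc25a24, Slc25a4 and Slc25a42 still excluded it.

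Nucleotide sugar and acetyl-CoA carriers had the largest share of members, 19 of 28 genes or 67.9%, and a median of 0.024 (-0.21 to 0.24), with 10 higher in LI and 9 in spleen. Slc35c1, the GDP-fucose transporter of the Golgi, had 56.1 RPKM in spleen and 43.4 RPKM in LI (log2 ratio -0.41, -0.77 to -0.055), and none of its 3 peaks was higher in LI. Slc35b1, which brings ATP into the endoplasmic reticulum, had 49.7 RPKM in spleen and 74.8 RPKM in LI (log2 ratio 0.54, 0.15 to 0.92). The CMP-sialic acid transporter Slc35a1 had 114 RPKM in spleen and 106 RPKM in LI (log2 ratio -0.16, -0.51 to 0.19). Slc35c1 was higher in spleen, Slc35b1 higher in LI, and the interval of Slc35a1 included 0.

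The vitamin, nucleoside, choline and fatty acid families, which here also hold the urea transporters, had 14 members of 32 genes, with a median of 0.029 (-0.31 to 0.82). Intervals lay above 0 in 3, Slc52a3, Slc46a3 and Slc27a1, and below 0 in 3, Slc14a1, Slc44a2 and Slc28a2. Each was 21.4% of the 14, beside 17.7% of all genes above 0 and 15.6% below. After the G and C correction the median was -0.094, and 4 of 14 were higher in LI. The corrected intervals of Slc27a1 (-0.31 to 1.23) and Slc28a2 (-0.51 to 0.072) included 0. Slc27a1, a fatty acid transport protein, had 17.3 RPKM in spleen and 32.0 RPKM in LI (log2 ratio 0.82, 0.084 to 1.56) over 2 peaks. Slc28a2, a concentrative purine nucleoside transporter, had 84.5 RPKM in spleen and 70.4 RPKM in LI (log2 ratio -0.31, -0.60 to -0.013). The equilibrative nucleoside transporter Slc29a1 had 71.8 RPKM in spleen and 61.9 RPKM in LI (log2 ratio -0.26, -0.70 to 0.19), the folate carrier Slc19a1 had 137 RPKM in spleen and 147 RPKM in LI (log2 ratio 0.056, -0.17 to 0.28), and the vitamin C transporter Slc23a2 had 378 RPKM in spleen and 369 RPKM in LI (log2 ratio -0.08, -0.25 to 0.094). These 3 had intervals that included 0, and after the G and C correction that of Slc29a1 lay below 0 (-0.93 to -0.0070). Only 7 of the 49 genes for organic ions and bile acids were members, with a median of -0.016, and among them the carnitine transporter Slc22a5 had 155 RPKM in spleen and 122 RPKM in LI (log2 ratio -0.38, -0.67 to -0.099).

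**Figure D4:**
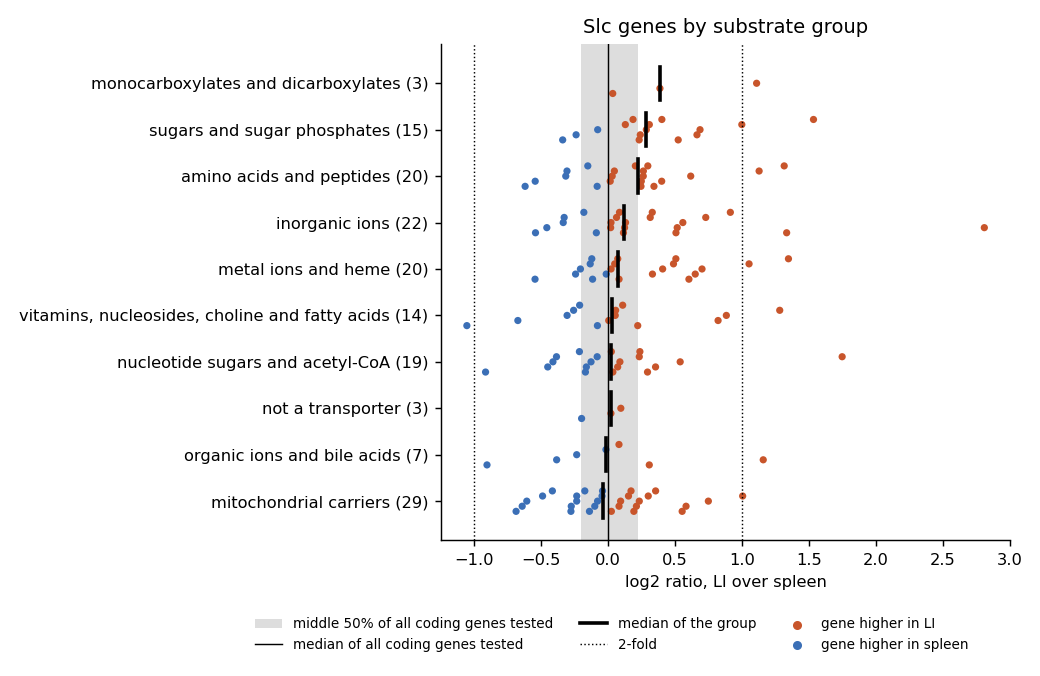
log2 ratio of LI over spleen (x axis) of the 152 Slc genes by substrate group (rows, number of members in brackets), each point a gene, with the median of the group as a thick bar. The grey band is the middle 50% of all 8701 coding genes, from -0.20 to 0.22, and dotted lines mark 2-fold. The sugar group has its median at 0.29, to the right of the band, and the mitochondrial carriers theirs at -0.042.

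A list of 40 transporters with a known role in T cells or in most cells held 31 members, which were split between the tissues. Their median was -0.080 (-0.18 to 0.056), 14 were higher in LI and 17 in spleen, and 0 were past 2-fold, beside 3.05% of all genes in LI and 1.77% in spleen. Intervals lay above 0 in 8, among them Slc2a1, Slc2a3, Slc6a6, Slc16a3, Slc11a2 and Slc39a6, and below 0 in 8, among them Slc7a5, Slc7a1, Slc44a2 and Slc12a7. Each was 25.8% of the 31, beside 17.7% of all genes above 0 and 15.6% below. Slc4a7 had 486 RPKM in spleen and 442 RPKM in LI (log2 ratio -0.18, -0.35 to -0.015) and was, like Slc38a2, slightly lower in LI. After the G and C correction the intervals of both included 0, that of Slc4a7 at -0.14 to 0.18. The sodium potassium chloride cotransporter Slc12a2 had 51.2 RPKM in spleen and 36.1 RPKM in LI (log2 ratio -0.54, -1.17 to 0.083), and the phosphate importer Slc20a1 had 78.4 RPKM in spleen and 76.2 RPKM in LI (log2 ratio -0.088, -0.40 to 0.22). Slc15a4, a lysosomal peptide and histidine transporter, had 84.9 RPKM in spleen and 105 RPKM in LI (log2 ratio 0.26, 0.02 to 0.51). Slc41a1, of a magnesium transporter family, had 90.8 RPKM in spleen and 97.0 RPKM in LI (log2 ratio 0.049, -0.17 to 0.27), Slc38a9, the arginine sensor of lysosomes, had 117 RPKM in spleen and 124 RPKM in LI (log2 ratio 0.047, -0.35 to 0.45), and Slc25a32, a mitochondrial folate carrier, had 46.3 RPKM in spleen and 43.4 RPKM in LI (log2 ratio -0.14, -0.72 to 0.44). Of the other 9 genes on the list, 5 had 1 peak and 4 none, among them Slc3a2, the heavy chain partner of Slc7a5, and Slc7a11, the cystine transporter.

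Transporters typical of the intestinal epithelium mostly had no H3K36me3 peak in either library. Of a list of 24, 18 had none, including the apical glucose transporter Slc5a1, the peptide transporter Slc15a1, the chloride exchanger Slc26a3 and the bile acid transporter Slc10a2. The 6 members were Slc39a4 and Slc52a3, described above and past 2-fold in LI, and Slc28a2, Slc26a2, Slc26a6 and Slc3a1, which were not. The 2 past 2-fold were 33.3% of the 6, beside 3.05% of all genes. Slc26a2 had 51.9 RPKM in spleen and 54.4 RPKM in LI (log2 ratio 0.022, -0.26 to 0.30), Slc26a6 had 54.2 RPKM in spleen and 61.3 RPKM in LI (log2 ratio 0.13, -0.25 to 0.51) and Slc3a1 had 17.8 RPKM in spleen and 22.2 RPKM in LI (log2 ratio 0.26, -0.55 to 1.08). In Slc3a1, 51.0% of the signal was shared with Prepl.

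Carriers that belong to the solute carrier superfamily under another symbol were outside the membership rule and served as a comparison. Of 28 such genes listed, 27 were in the annotation and 22 had at least 2 peaks. Their median was 0.057 (-0.046 to 0.39), with 14 higher in LI, and 2 were past 2-fold there, or 9.09%, beside 3.05% of all genes. Slco4a1, an organic anion transporter, had 36.04 RPKM in spleen and 109.7 RPKM in LI (log2 ratio 1.55, 1.02 to 2.08), with all 7 peaks higher in LI. Mpc2, a subunit of the mitochondrial pyruvate carrier, had 8.44 RPKM in spleen and 18.4 RPKM in LI (1.04, -0.13 to 2.20) over 2 peaks.

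The tissue ratio moved with base composition. Across the 152 members, the G and C content of the peaks and the log2 ratio had a Pearson correlation of 0.46 and a Spearman correlation of 0.45, and over all 8701 genes Pearson's r was 0.35; the genes share the libraries, and these values are descriptions. In the 51 members with the least G and C (40.6% to 47.4%) the median log2 ratio was -0.12, in the middle 50 it was 0.082, and in the 51 with the most (52.6% to 66.8%) 0.33. Of the 12 members past 2-fold in LI, 10 were in the richest group and 2 in the poorest. Dividing each LI peak by the median ratio of all peaks of like G and C content brought Pearson's r to 0.22 and the median of the members to 0.0043, with 77 of 152 higher in LI. Over all genes the corrected median was -0.013, with 4139 of 8701 higher in LI. After the correction, 9 members remained past 2-fold in LI, all among the 12, beside 2.41% of all genes, and 2 in spleen, Slc14a1 and Slc17a9, beside 1.91%. Intervals lay above 0 in 35 members, or 23.0%, beside 12.0% of all genes, and below 0 in 23, or 15.1%, beside 14.0%. The 3 that fell below 2-fold were Slc6a8 at 0.89, Slc39a4 at 0.76 and Slc25a23 at 0.71. The direction was kept in 124 of 152 members. Whether the relation comes from the libraries or from the genes was not tested.

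**Figure D5:**
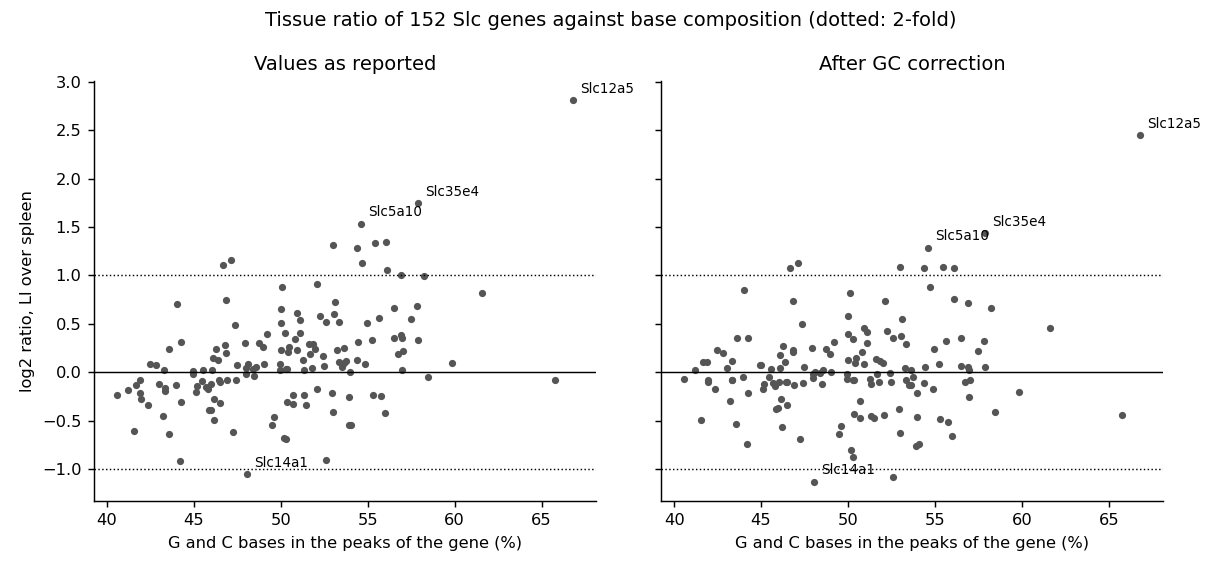
log2 ratio of LI over spleen (y axis) against the G and C content of the gene's peaks in percent (x axis) for the 152 Slc genes, as reported (left) and after correction for G and C content (right). Each point is a gene and dotted lines mark 2-fold. The points climb to the right before correction (Pearson's r 0.46) and less after it (0.22), and Slc12a5, Slc35e4 and Slc5a10 stay above 2-fold in both.

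Some members shared their peaks with other genes. In 17 of 152, part of the signal lay in peaks whose midpoint was also within another coding gene, and in 10 this was more than 50% of it. Without these 10, 11 of 142 members were past 2-fold in LI, since of the 12 only Slc5a10 was among them.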

How the data were processed

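H3K36me3 ChIP-seq values of Treg cells were analysed for 1 spleen and 1 LI library. The authors mapped their 75 nt single-end reads on mm10 (Bowtie2, per the submitters' processing notes), called peaks per tissue with MACS2 against the input, merged them with bedtools and averaged RPKM coverage tracks over the merged peaks. The deposited values are therefore mean RPKM, although labelled as raw counts. They were not whole numbers, so no count test was run. Value times peak length was a whole multiple (within 0.05) of 1.69 RPKM in spleen and 1.31 RPKM in LI, taken as 1 read in a 20 bp bin, in all of the 15288 spleen and 9681 LI values with fewer than 1000 such steps, and was not checked for larger values. Of 120910 peaks, with a median length of 456 bp, those whose midpoint lay in a GENCODE M21 coding gene body were summed per gene, and genes needed 2 peaks and 20 RPKM over both libraries, which all genes with 2 peaks passed. The log2 ratio (pseudocount 0.5 RPKM, which understates the change of low genes) was lowered by the log2 ratio of the totals (0.046). Counting intervals (95%) took each read as covering 200 bp and as an independent molecule. The calculation was tested on simulated data drawn under these same assumptions, so that test could not check them. The G and C correction used 20 bins of peaks on GRCm38. Past 2-fold is a size, not a test. Named genes were a list of T cell transporters, the 10 members per direction with the most extreme interval bound among those with at least 50 RPKM, the 5 with the highest level, and the genes past 2-fold in an epithelial list and a list of carriers with other symbols, and any other gene named was chosen after its values were seen. Some genes of this rule are not reported here. The members and lists were chosen with earlier results of these data known. Exon sequences came from the RefSeq copy of GRCm38. Python 3.11.15, pandas 2.3.3, numpy 2.4.6 and pysam 0.24.0 were used.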

Additional observations from a re-analysis of the deposited data

How the results depend on the processing

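No paired analysis was possible because each tissue has 1 library, and for the same reason no replicate could be left out. Of 164 summary values under other settings, 152 stayed within 1.5 times the count or within the interval of the median. The number of members past 2-fold in LI, 12 as reported, was 4 of 105 with a minimum of 100 RPKM (1.84% of all genes tested that way), 4 of 83 with peaks of at least 1 kb only (1.40%), 4 of 104 with at least 5 peaks (2.27%), 7 of 135 with peaks assigned to the nearest transcript start (3.13%), and 2 with the counting interval wholly past 2-fold (0.988%), beside 3.05% as reported. The first 3 of these settings leave fewer genes. For spleen, 1 as reported, it was 2 with the nearest transcript start, 2 after the G and C correction, and 0 with the interval wholly past 2-fold. With long peaks only, 52 of 83 members were higher in LI. The median ratio was 0.0043 after the G and C correction, beside -0.013 over all genes. The median level over bases in peaks only was 12.1 RPKM in spleen and 13.6 RPKM in LI, which is higher because it leaves out the bases without peaks. Of 602 values of single named genes, 5 reversed a direction whose interval excluded 0. With the strongest peak only these were Slc46a3 (-0.12), Slc22a5 (0.056), Slc35b3 (0.096) and Slc4a8 (-0.0010), and after the G and C correction Slc4a7 (0.021). A further 33 values lay outside the counting interval of the reported ratio, 28 with its sign and 5 with the other sign where that interval held 0. Of these, 16 came from the strongest peak only, 6 from peaks of at least 1 kb, 4 from the G and C correction, 3 from the nearest transcript start, 3 from weighting by length and 1 from leaving out peaks near the start. Slc5a10, 1.53 as reported, was 0.28 with the nearest transcript start. The cause was not tested. Without Slc4a1ap, Slc7a6os and Slc9a3r1, which are no transporters, and without members that mostly share peaks (both chosen after seeing the data), the summary values kept within these bounds. Genes with 2 or 3 peaks have wide intervals, since few reads lie behind them.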
